A study of Mus musculus with 6 samples.

Results

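The transcripts of 9 chemokine receptors, Ccr2, Ccr4, Ccr7, Ccr8, Ccr9, Cxcr3, Cxcr4, Cxcr5 and Cxcr6, were followed in mouse double negative T (DNT) cells. The genes were chosen by their symbols, and all 9 were found by Ensembl identifier among the 26128 genes listed. RNA was sequenced from 6 libraries of DNT cells of the C57BL/6 strain. The labels give the tissue as spleen and the stage as adult. In the study, these cells were not isolated directly. CD4+CD25- T cells of spleens and lymph nodes were converted in culture with mature dendritic cells of DBA/2 mice and IL-2, and then sorted as CD3+NK1.1-CD4-CD8- cells. Every library received anti-CD3/CD28 beads for 48 h. The 3 libraries of the IL-33 group received IL-33 at 50 ng/ml as well, and the 3 libraries of the control group did not. No source states whether the 3 libraries of a group came from separate mice or cultures, so the p-values measure only the spread between these libraries, which may be technical.

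Chemokine receptors span the membrane several times and signal through inhibitory G proteins when a chemokine binds. The gradient of chemokine then steers the cell, and the set of receptors that a T cell carries largely sets which tissues it can enter. CCR7 leads T cells into the T cell zones of lymph nodes, CXCR5 into B cell follicles, CCR9 into the small intestine, and CXCR6 holds lymphocytes in tissues such as the liver. CCR2 and CXCR3 guide cells to inflamed sites, CCR4 and CCR8 are common on type 2 and regulatory T cells, and CXCR4 is the receptor for CXCL12, which retains cells in bone marrow. IL-33 is a cytokine of epithelial and stromal cells that acts through the receptor ST2.

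These receptors share a coding signature, the Asp-Arg-Tyr motif at the inner end of the third membrane-spanning segment, where these receptors engage their G protein. It is shown for 8 of them because it gives the family relation, and the departure in the most abundant gene, at the level of the transcript. Each sequence is 30 coding bases, 5′ to 3′ on the sense strand, from the longest open reading frame of a GENCODE M21 transcript. The capitals mark the codons of the motif.
Ccr2: GATAGGTACttggctattgttcatgctgtg
Ccr4: GACAGATACctggccatcgtgcacgcggta
Ccr7: GACCGCTACgtagccatcgtccaggccgtg
Ccr9: GACAGATACattgccattgtacaggccatg
Cxcr3: GACAGATATctgagcatagtgcacgccacc
Cxcr4: GACCGGTACctcgctattgtccacgccacc
Cxcr5: GACCGGTACctagccatcgtccatgctgtt
Cxcr6: GATCGTTTCattgtagtggtccaggctacc
In Cxcr6 the capitals code for Asp-Arg-Phe, and in the other 7 genes shown for Asp-Arg-Tyr. Among these 8 genes the motif starts at residue 134 in Ccr4, the lowest position, and at residue 153 in Ccr7, the highest, and the open reading frames code for 358 residues in Cxcr6 to 378 in Ccr7. In Cxcr4 the motif occurs at 2 places, and the stretch shown starts at residue 135.

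Of the 9 genes, 6 lie on chromosome 9 (GRCm38, GENCODE M21). Ccr9 (ENSMUSG00000029530, chr9:123678439-123784330, plus strand), Cxcr6 (ENSMUSG00000048521, chr9:123806475-123811760, plus strand) and Ccr2 (ENSMUSG00000049103, chr9:124101950-124113557, plus strand) belong to 1 cluster of receptor genes. Ccr4 (ENSMUSG00000047898, chr9:114490316-114504916, minus strand), Ccr8 (ENSMUSG00000042262, chr9:120092114-120094906, plus strand) and Cxcr5 (ENSMUSG00000047880, chr9:44511787-44561877, minus strand) lie apart from it. Ccr7 (ENSMUSG00000037944) is at chr11:99144196-99155077 on the minus strand, Cxcr3 (ENSMUSG00000050232) at chrX:101731535-101734269 on the minus strand and Cxcr4 (ENSMUSG00000045382) at chr1:128588199-128592293 on the minus strand.

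The libraries held 20256342 to 22336050 counts, so that 3 counts, taken as the limit of detection, stood for 0.135 to 0.148 counts per 1000000 counts (CPM). T cell markers were abundant in all 6 libraries, with a summed level of 3248 to 3367 CPM in control and 3325 to 3426 CPM in IL-33 libraries over 10 markers, and Cd4 had 5 to 22 counts. Against the sort, Cd8a averaged 545 ± 13.6 CPM in control and 400.2 ± 9.15 CPM in IL-33 libraries (SD, n = 3). The other CD8 chain, Cd8b1, rose from 9.68 ± 1.65 to 16.3 ± 2.07 CPM. Klrb1c, which encodes NK1.1, averaged 33.5 ± 2.57 and 25.6 ± 1.16 CPM. The natural killer cell genes Eomes and Gzma were also high, while Ncr1 had 0 to 5 counts. Over 6 listed markers of mast cells and basophils the summed level was 39.1 to 42.4 CPM in control and 28.1 to 33.2 CPM in IL-33 libraries, and over 3 listed markers of B cells 4.79 to 5.70 and 5.30 to 6.35 CPM, and their part in the results was not tested. The cells are therefore called DNT cells here by their label. In RNA of bulk samples, fewer cells that carry a receptor and less receptor RNA per cell cannot be told apart.

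The receptor profile of the DNT cells was dominated by Cxcr6. On a scale of CPM per kilobase of exon, which allows genes to be compared, its mean level was 131.6 ± 3.26 in control and 147.5 ± 1.29 in IL-33 libraries (SD, n = 3). Cxcr4 followed with 31.3 ± 1.83 and 33.1 ± 1.4, and Ccr2 with 26.5 ± 0.58 and 23.7 ± 0.537. Ccr8 was the fourth, with 9.55 ± 1.14 and 8.0 ± 1.13.

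Below these, Ccr4, Cxcr3 and Ccr7 were close together. In control libraries, the levels per kilobase of Ccr4 (4.65 to 5.59) and Cxcr3 (4.52 to 5.62) overlapped, and Ccr7 (1.88 to 2.24) lay below both. In IL-33 libraries, Ccr7 (4.22 to 4.85) overlapped with Ccr4 (4.61 to 5.12) and also with Cxcr3 (3.50 to 4.43), whereas Ccr4 and Cxcr3 no longer overlapped. Ccr7 thus stood seventh by mean level in control and sixth in IL-33 libraries, where Cxcr3 stood seventh. Ccr9 and Cxcr5 were at most 0.108 CPM per kilobase in every library, and their ranges overlapped in IL-33 but not in control libraries.

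**Figure D1:**
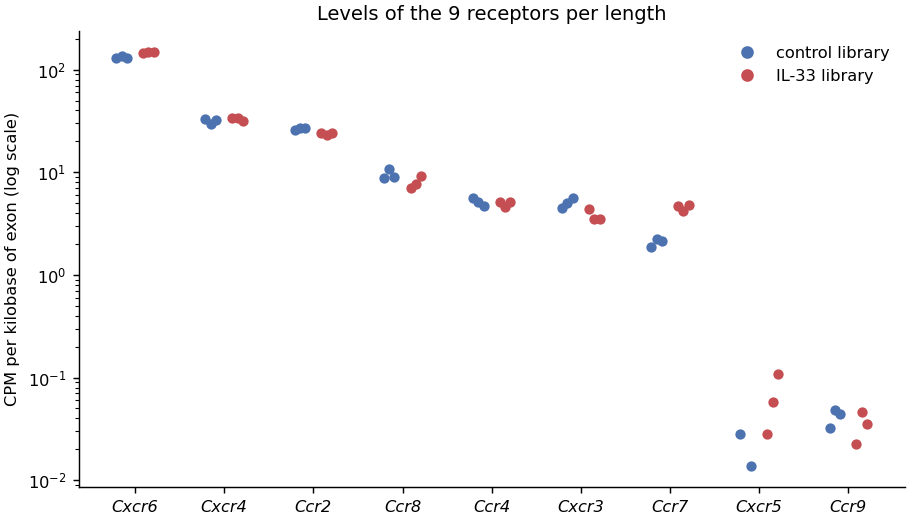
Level of each of the 9 receptors in CPM per kilobase of exon (log scale) in every library, with 3 control and 3 IL-33 libraries each, genes in order of their mean. Cxcr6 lies above all others, and Ccr7 is the gene whose IL-33 points (4.22 to 4.85) move up to those of Ccr4; Cxcr5 is at 0 in control replicate 2, which a log axis cannot show.

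Cxcr6 made up 61.8% to 63.0% of the summed level per kilobase of the 9 receptors in control and 64.9% to 65.7% in IL-33 libraries. The share of Ccr2 was 12.4% to 12.8% in control and 10.3% to 10.7% in IL-33 libraries. That of Ccr7 was 0.901% to 1.04% and 1.88% to 2.13%. The groups did not overlap for any of these 3 shares. They did not overlap either for Ccr8, at 4.19% to 5.05% in control and 3.11% to 4.06% in IL-33 libraries. The same held for Cxcr3, at 2.16% to 2.67% and 1.545% to 1.97%. The share of Cxcr4 overlapped, at 13.6% to 15.7% and 13.9% to 15.1%, as did those of Ccr4, Ccr9 and Cxcr5. The shares are linked, since a gain of 1 receptor lowers those of the others. The summed level of the 9 genes in CPM was 523 to 538 in control and 541 to 551 in IL-33 libraries.

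To ask which receptors differed with IL-33, IL-33 was set against control with edgeR's quasi-likelihood test over the 14671 genes with enough counts, with Benjamini-Hochberg adjusted p-values. Of the 9 receptors, 7 had enough counts, and 4 of these passed an adjusted p of 0.05, where 27.5% of all genes tested did. Ccr7 and Cxcr6 were higher (2 receptors, where 13.6% of all genes were), and Ccr2 and Cxcr3 were lower (2 receptors, where 13.9% of all genes were). Only Ccr7 also reached a fold change of 1.5 in either direction, which 4.87% of all genes did together with the adjusted p. The groups did not overlap for the same 4 receptors, as for 38.9% of all genes. The median log2 fold change was -0.056 over the 7 receptors and -0.00063 over all genes tested.

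**Figure D2:**
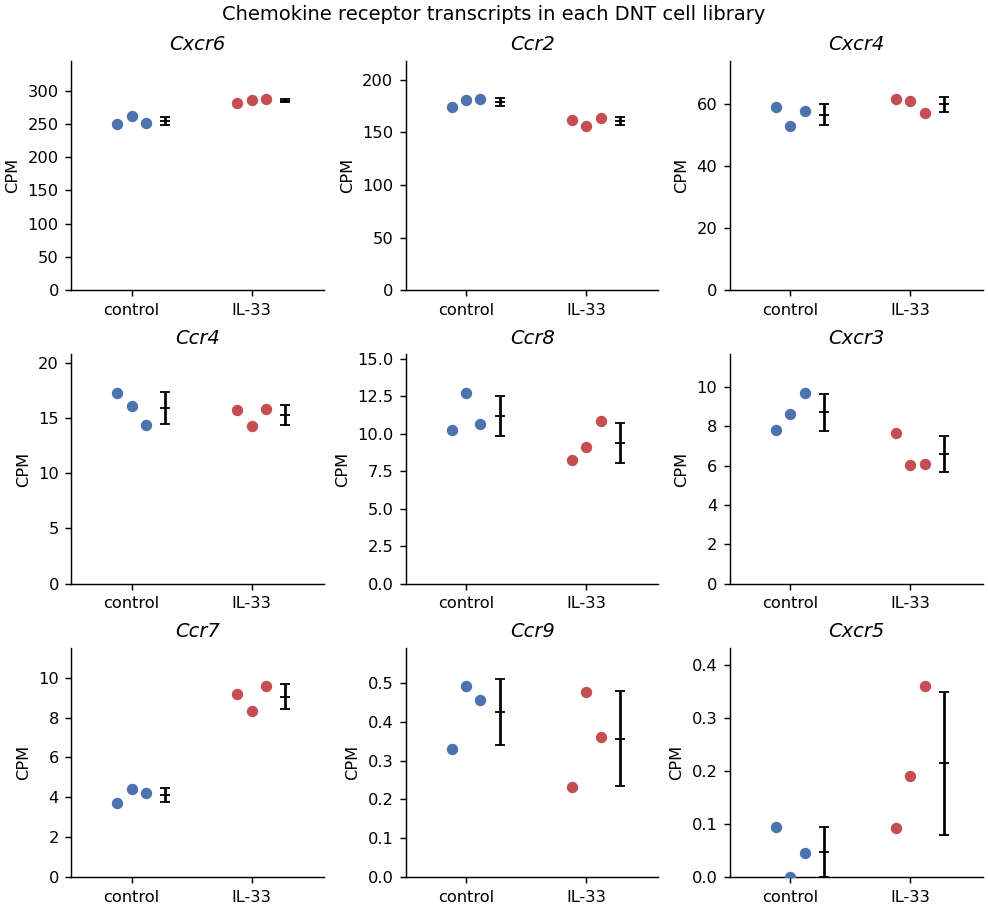
CPM of each of the 9 receptors in every library, on axes that start at 0, with the mean and SD of the 3 libraries of each group beside the points. The groups do not overlap for Cxcr6, Ccr2, Cxcr3 and Ccr7, and the means of Ccr7 are 4.12 in control and 9.05 in IL-33 libraries.

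Among the receptors of lymphoid organs, Ccr7 rose. It encodes the receptor for CCL19 and CCL21 by which naive and central memory T cells enter lymph nodes. Its level was 3.72, 4.43 and 4.20 CPM in the control libraries and 9.21, 8.35 and 9.59 CPM in the IL-33 libraries, from 79, 90 and 92 and from 198, 175 and 213 counts. The 3 IL-33 libraries were all above the 3 control libraries, and the lowest of them lay far above the highest control library compared with the spread inside either group. The fold change was 2.20 (95% interval 1.79 to 2.70), a log2 fold change of 1.14 ± 0.149 (SE), with an adjusted p of 3.9e-10 in edgeR's quasi-likelihood test. Even so, Ccr7 remained a transcript of low abundance, with 2.03% of the summed receptor level in IL-33 libraries.

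Cxcr5, the receptor for CXCL13 on follicular T cells and B cells, was hardly detected. It had 2, 0 and 1 counts in the control and 2, 4 and 8 counts in the IL-33 libraries and did not pass the filter on low counts. All 3 control libraries were below the limit of 3 counts, as was IL-33 replicate 1, and the groups touched at 2 counts. A difference in Cxcr5 was not detectable at this depth, and the adjusted p without the filter was 0.318 in edgeR's quasi-likelihood test.

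Cxcr4, the receptor for CXCL12, followed Cxcr6 in mean level per kilobase of exon, though not in CPM, where Ccr2 was higher. It gave 59.2, 52.9 and 57.8 CPM in the control and 61.6, 61.1 and 57.0 CPM in the IL-33 libraries. The groups overlapped, since IL-33 replicate 3 lay below control replicates 1 and 3. The log2 fold change was 0.080 ± 0.052 (SE), with an adjusted p of 0.27 in edgeR's quasi-likelihood test. The 95% interval of the fold change, 0.984 to 1.14, did not reach the interval of Ccr7.

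Among the receptors linked to inflamed and peripheral tissues, Cxcr6 rose and Ccr2 fell, both by small amounts from high levels. Cxcr6, the receptor for the membrane-bound chemokine CXCL16, was at 249.9, 261 and 251 CPM in the control and 282, 285 and 287 CPM in the IL-33 libraries. All IL-33 libraries exceeded all control libraries, and their SD was 2.49 CPM against 6.29 CPM in control. The change was 12.1% (fold change 1.12, 95% interval 1.07 to 1.17), with an adjusted p of 1.4e-05 in edgeR's quasi-likelihood test. With 5304 to 6377 counts in each library, Cxcr6 was measured with the smallest standard error of the 7 receptors, 0.032 on the log2 scale.

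Cxcr6 overlaps Fyco1, a gene of the opposite strand that encodes an adaptor of autophagosome transport. Fyco1 had a log2 fold change of 0.25 and an adjusted p of 6.0e-06 in the same test. The exons of both genes share 0 bases in GENCODE M21, but Cxcr6 lies inside Fyco1, between its exons, and the use of strand in counting is not given in the sources used here. Reads from introns of Fyco1 and from Cxcr6 could then not be told apart. The mean level of Fyco1 was 73.5 CPM and that of Cxcr6 in IL-33 libraries 285 CPM.

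Ccr2, the receptor for CCL2 and related chemokines on monocytes and activated T cells, was at 174, 181 and 181 CPM in the control and 161, 156 and 164 CPM in the IL-33 libraries. The highest IL-33 library was below the lowest control library. The level fell by 10.3% (fold change 0.897, 95% interval 0.853 to 0.942), with an adjusted p of 0.00027 in edgeR's quasi-likelihood test. Dendritic and myeloid cells also carry CCR2. Of 16 of their markers, 15 were listed, and their summed level was 123 to 125 CPM in control and 105 to 114 CPM in IL-33 libraries. Itgax made up much of this sum, with 54.6 ± 2.07 and 26.0 ± 1.59 CPM (SD, n = 3), and it is also found on activated T cells. Without it, a choice made after the values were seen, the sum was 66.8 to 73.2 and 79.9 to 86.5 CPM. In this list, Batf3, Itgam, H2-Ab1 and Cd68 rose, and Itgax and Cd74 fell. Cd68 averaged 29.4 ± 1.42 CPM in control and 33.6 ± 1.62 CPM in IL-33 libraries (SD, n = 3). H2-Ab1 had 483 to 677 counts in a library, Itgam 53 to 120, Batf3 20 to 98 and Zbtb46 50 to 72. Flt3 had 0 to 2 counts, Siglech 0 to 1, Lyz2 0 to 8, Csf1r 0 to 13 and Adgre1 1 to 6. The part of dendritic and myeloid cells in the level and the change of Ccr2 was not tested.

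Cxcr3, the receptor for the interferon-induced chemokines CXCL9 and CXCL10 on type 1 effector cells, was at 7.82, 8.61 and 9.72 CPM in the control and 7.67, 6.06 and 6.08 CPM in the IL-33 libraries. The groups did not overlap, but IL-33 replicate 1 and control replicate 1 nearly met, with 165 and 166 counts. The log2 fold change was -0.40 ± 0.138 (SE), a fold change of 0.757 (95% interval 0.626 to 0.915), and the adjusted p was 0.020 in edgeR's quasi-likelihood test. This call was lost in DESeq2 (adjusted p of 0.0793) and, in edgeR, when control replicate 3 (0.143) or either of IL-33 replicates 2 (0.0970) and 3 (0.0948) was left out, while the direction was kept. Cxcr3 is also found on natural killer cells, whose marker Klrb1c fell with a log2 fold change of -0.39 and an adjusted p of 7.1e-06. The other listed markers changed less or had few counts. Gzma was at -0.044 (adjusted p of 0.023) and Eomes at -0.057 (0.14), all in edgeR's quasi-likelihood test. Ncr1 and Klra8 did not pass the filter on low counts. The summed level of the 5 markers of natural killer cells, nearly all of it Gzma, was 16289 to 16791 CPM in control and 15912 to 16025 CPM in IL-33 libraries. The part of these cells in the result was not tested.

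The 3 receptors linked to skin, type 2 and regulatory T cells and the gut did not pass the test or had too few counts. Ccr4, the receptor for CCL17 and CCL22, was at 17.3, 16.0 and 14.4 CPM in the control and 15.8, 14.3 and 15.8 CPM in the IL-33 libraries, which overlapped fully with the control libraries apart from the lowest value. Its fold change was 0.962 (95% interval 0.839 to 1.1), with an adjusted p of 0.73 in edgeR's quasi-likelihood test. Ccr8, the receptor for CCL1, was at 10.3, 12.7 and 10.6 CPM in the control and 8.23, 9.11 and 10.8 CPM in the IL-33 libraries. IL-33 replicate 3 lay inside the range of the control libraries, and the other two IL-33 libraries lay below it. The fold change of Ccr8 was 0.839 (95% interval 0.708 to 0.994), with a p of 0.043 before and 0.12 after adjustment in edgeR's quasi-likelihood test. Without IL-33 replicate 3, Ccr8 passed the threshold, with a log2 fold change of -0.37 and an adjusted p of 0.0391.

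Ccr9, the receptor for the gut chemokine CCL25, had 7, 10 and 10 counts in the control and 5, 10 and 8 counts in the IL-33 libraries. It did not pass the filter, and its adjusted p without the filter was 0.848 in edgeR's quasi-likelihood test. Its counts cannot be read as expression with certainty, since 18.8% of its exon bases are shared with AC165425.1 on the opposite strand and 2.62% with Gm17200. Of its windows of 50 bases, 20.1% occur in transcripts of other genes. For Ccr7, Ccr8, Cxcr3, Cxcr4 and Cxcr6 this share was 0%, and for Ccr2, Ccr4 and Cxcr5 it was 1.91%, 0.465% and 1.86%.

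**Figure D3:**
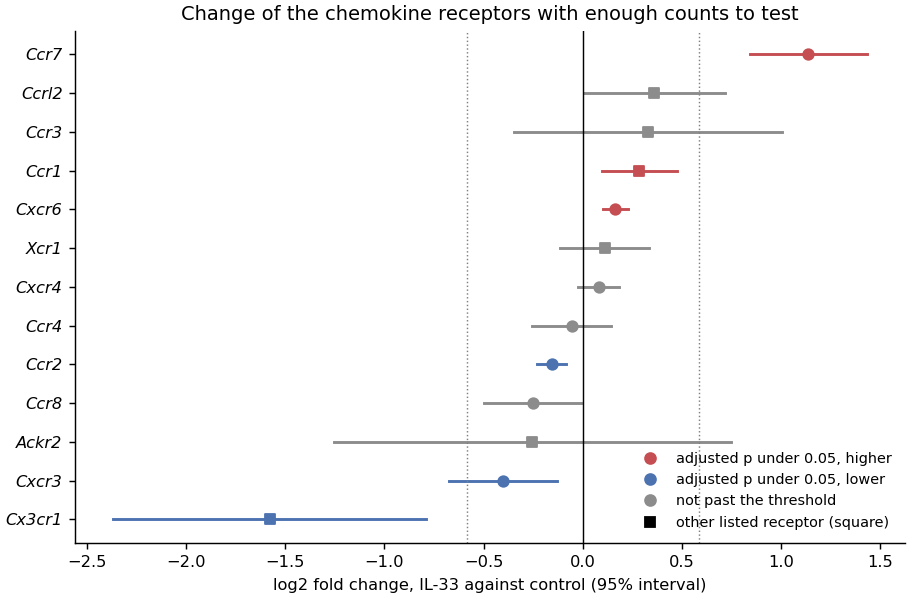
Log2 fold change of IL-33 against control with its 95% interval for the 7 of the 9 receptors tested (circles) and 6 other receptors (squares), with dotted lines at a fold change of 1.5 in either direction. Ccr7 (1.14) and Cx3cr1 (-1.58) lie beyond the dotted lines, and the intervals of Cxcr4, Ccr4, Xcr1, Ccr3 and Ackr2 cross 0.

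Relations between the receptors within a library do not depend on the scaling of libraries. These 3 pairs were chosen after the values were seen, and with 3 against 3 libraries an exact permutation test cannot go below a p of 0.10. There were 1.43, 1.44 and 1.38 counts of Cxcr6 for each count of Ccr2 in the control and 1.75, 1.82 and 1.75 in the IL-33 libraries. For Ccr7 against Cxcr3 the ratio was 0.476, 0.514 and 0.432 in the control and 1.2, 1.38 and 1.58 in the IL-33 libraries. Neither ratio overlapped between the groups, with an exact two-sided permutation p of 0.10, the smallest possible, for both. The ratio of Cxcr3 to Ccr4 overlapped, at 0.452 to 0.676 in control and 0.384 to 0.487 in IL-33 libraries, with an exact two-sided permutation p of 0.20. Ccr7 thus had fewer counts than Cxcr3 in each control library and more in each IL-33 library.

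Calls among the receptor genes on chromosome 9 went in both directions. In order of position, the cluster around Cxcr6 and Ccr2 held Ccr9, Cxcr6, Xcr1, Ccr1, Ccr3 and Ccr2 among the receptors listed here. Ccr1, which binds several inflammatory chemokines, rose with a log2 fold change of 0.28 and an adjusted p of 0.016. Its level was 13.6 to 17.3 CPM in control and 18.7 to 19.4 CPM in IL-33 libraries, and the call was lost in DESeq2 (adjusted p of 0.0611) and without control replicate 1 (0.189). Xcr1 (log2 fold change 0.11, adjusted p of 0.52) and Ccr3 (0.33, adjusted p of 0.52) did not pass the test, all in edgeR's quasi-likelihood test. Next to Ccr8, at a distance of 22235 bases, lies Cx3cr1, the receptor for fractalkine on cytotoxic effector cells and monocytes. It fell from 1.27, 1.92 and 1.14 CPM in the control to 0.326, 0.381 and 0.720 CPM in the IL-33 libraries, with a log2 fold change of -1.58 ± 0.398 (SE) and an adjusted p of 0.0010 in the same test.

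Beyond the 9 genes, 8 other conventional receptors were listed, of which 4 had enough counts, and 1 rose (Ccr1) and 1 fell (Cx3cr1). Over all genes tested, 13.6% rose and 13.9% fell. Ccr6, Ccr10, Cxcr1 and Cxcr2 had at most 6 counts in any library. Of 5 atypical receptors, which bind chemokines without signalling through G proteins, 3 were listed and 2 tested. None of these passed in edgeR, DESeq2 or limma-voom, and 1, Ccrl2, had an unadjusted p under 0.05 in edgeR's quasi-likelihood test. Of 16 ligands of the 9 receptors, 9 were listed and 4 tested, Ccl1, Ccl25, Cxcl10 and Cxcl16. None of the ligands passed in edgeR, DESeq2 or limma-voom on the genes tested, and 2 had an unadjusted p under 0.05 in edgeR. Ccl1, the ligand of CCR8, had a log2 fold change of -0.26 with an adjusted p of 0.058, and Cxcl10, a ligand of CXCR3, -0.68 with 0.10 in edgeR's quasi-likelihood test. The summed level of the 9 ligands listed was 28.9 to 31.7 CPM in control and 25.2 to 27.8 CPM in IL-33 libraries.

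Of 25 genes that carry the signal of these receptors to the cytoskeleton and to adhesion, all were tested. Of these, 7 rose and 2 fell, where 13.6% and 13.9% of all genes tested did. The median log2 fold change was 0.044. The largest change was in Pik3r5, a regulatory subunit of the phosphoinositide 3-kinase that G protein subunits activate, which rose from 33.0 ± 1.17 to 50.8 ± 2.80 CPM (SD, n = 3), a log2 fold change of 0.62 with an adjusted p of 3.4e-15. Its catalytic partner Pik3cg (log2 fold change 0.19), the G protein subunit Gng2 (0.39) and the GTPase Rac2 (0.10) rose as well. Vav1, an exchange factor for Rac proteins, fell (-0.21). The inhibitory G protein subunit Gnai2 (0.059, adjusted p of 0.081 in edgeR's quasi-likelihood test) and Coro1a, which organises actin (-0.012, adjusted p of 0.75), did not pass. Without IL-33 replicate 3, Gnai2 passed with 0.0314.

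Of 16 genes that switch the receptors off or modify them, 6 rose, 3 fell and 7 did not pass, with a median log2 fold change of 0.0068. Over all genes tested, 13.6% rose and 13.9% fell. Arrb1, an arrestin that uncouples receptors and takes them into the cell, rose from 331.7 ± 17.6 to 485.9 ± 9.85 CPM (SD, n = 3), a log2 fold change of 0.55 with an adjusted p of 2.7e-28 in edgeR's quasi-likelihood test. Rgs1, which speeds the switching off of G proteins and dampens chemotaxis, rose from 581 ± 17.1 to 721 ± 7.15 CPM, a log2 fold change of 0.31. Arrb2 (0.15) and the receptor kinase Grk6 (0.18) also rose. Grk3, a kinase of the same family with few counts, fell from 4.18 ± 0.573 to 2.36 ± 0.531 CPM (-0.82). The related Grk2 was at 0.077 with an adjusted p of 0.043, a call lost in 7 of the 13 other fits.

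**Figure D4:**
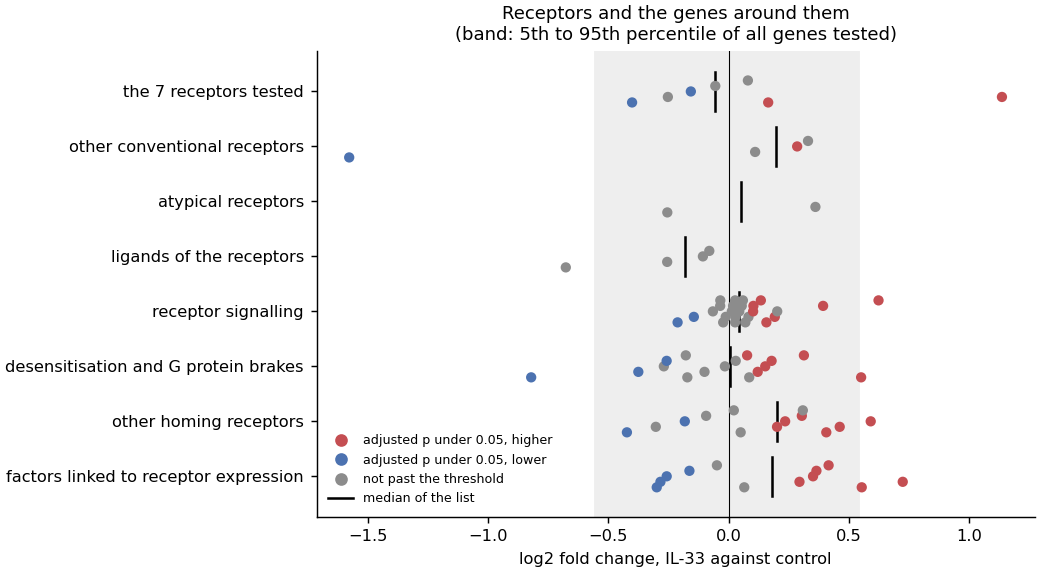
Log2 fold change of IL-33 against control for every tested gene of the receptors and of 7 lists around them, with the median of each list as a black bar and the range from the 5th to the 95th percentile of all genes tested (-0.558 to 0.543) in grey. Most points lie inside the grey band, and Cx3cr1, Ccr7, Grk3 and Klf2 are the points farthest outside it.

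Of 15 other receptors of homing and retention, 14 were listed and 13 tested, and 6 rose and 2 fell, with a median of 0.20. Over all genes tested, 13.6% rose and 13.9% fell. Cd69, which holds lymphocytes in tissue by removing a sphingosine phosphate receptor from the surface, rose from 190 ± 2.78 to 252 ± 8.28 CPM (SD, n = 3), a log2 fold change of 0.41. The leukotriene receptor Ltb4r1 (0.46), the nucleotide sugar receptor P2ry14 (0.59) and S1pr4 (0.30) rose, and Cysltr1, another leukotriene receptor, fell (-0.42). S1pr1, by which naive T cells leave lymph nodes and which was named after its values were seen, did not pass (log2 fold change -0.30, adjusted p of 0.38 in edgeR's quasi-likelihood test), at 1.58 to 3.20 CPM over the 6 libraries.

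Of 12 transcription factors linked to the expression of these receptors, 6 rose, 4 fell and 2 did not pass, with a median of 0.18. Over all genes tested, 13.6% rose and 13.9% fell. The list was chosen with earlier results of these data known. Foxo1, which drives Ccr7 in resting T cells, rose from 71.7 ± 0.912 to 92.3 ± 3.00 CPM (SD, n = 3), a log2 fold change of 0.36 with an adjusted p of 6.5e-12 in edgeR's quasi-likelihood test. Runx3 (0.42) and Prdm1 (0.55), both found in tissue-resident lymphocytes, and Lef1 (0.35), a factor of naive T cells, rose as well. Tcf7, another factor of naive T cells, named after its values were seen, fell (-0.28, adjusted p of 0.00068 in the same test). Bcl6, the factor of follicular T cells, fell (-0.30). The only factor past both thresholds was Klf2, named after its values were seen. It was at 2.12, 2.12 and 2.78 CPM in the control and 3.63, 3.62 and 4.37 CPM in the IL-33 libraries, a log2 fold change of 0.72 with an adjusted p of 0.0048 in the same test. Tbx21, which drives Cxcr3 in type 1 cells and was also named after its values were seen, fell, with a log2 fold change of -0.26 and an adjusted p of 0.00039 in the same test. The part of these factors in the changes of the receptors was not tested.

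The genes whose level followed a receptor most closely were sought among 12935 genes with at least 1 CPM, as a description over 6 libraries that fall into the 2 groups. For Ccr7 these were 2810004N23Rik (Pearson r of 0.9988 on log2 CPM), Serinc1 (0.9976) and Zc3hav1 (0.9964). For Cxcr6 they were Polr1d (0.9978), Commd6 (0.9973) and Ccdc125 (0.9973). All 6 genes were higher with IL-33, as both receptors were, and none of them encodes a receptor for chemokines. Their changes were smaller than that of Ccr7, with log2 fold changes of 0.16 for Zc3hav1 to 0.46 for 2810004N23Rik.

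**Figure D5:**
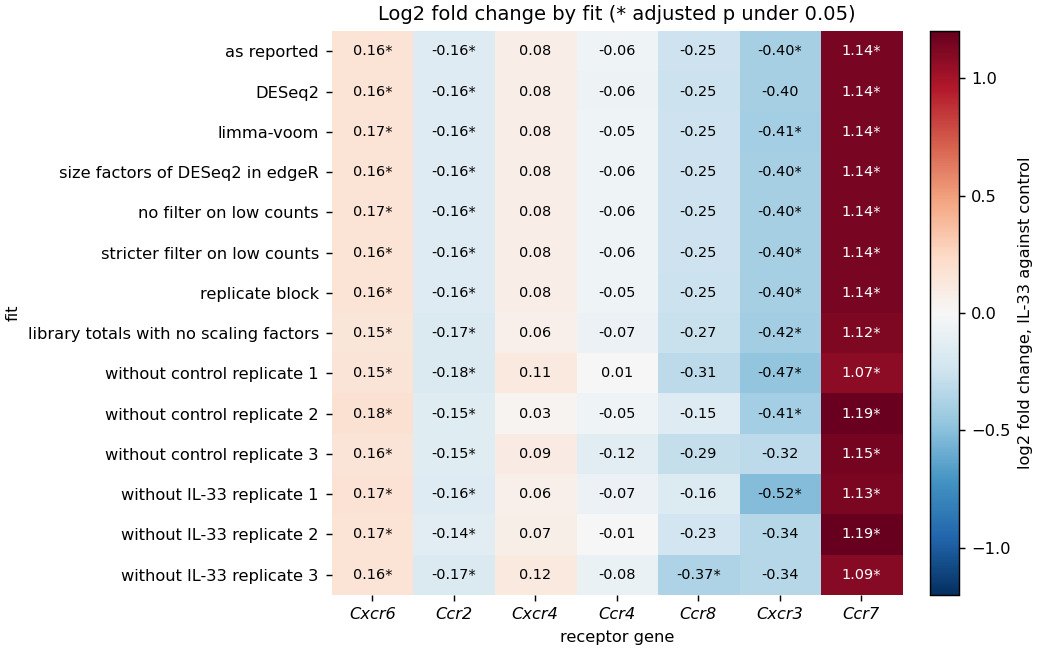
Log2 fold change of IL-33 against control for the 7 receptors tested in the fit reported and in 13 other fits, with the value in each cell and an asterisk where the adjusted p is under 0.05. Ccr7, Cxcr6 and Ccr2 carry an asterisk in every fit, Cxcr3 loses it in 4 of the other fits and Ccr8 gains it in 1.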

How the data were processed

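RNA of 3 control and 3 IL-33 libraries of DNT cells was sequenced on the Illumina platform. The authors deposited counts of reads per gene, not normalized, by Ensembl identifier, with 1 column of the authors' pooled signal (a mean of normalized counts), not used here. The submitters' processing notes name Bowtie 0.12.2 and mm8 without their role. Labels and methods name different library kits, and neither names the counting program or its use of strand. Symbols were matched for 26072 of 26128 identifiers. All positions and lengths are from GENCODE M21 (GRCm38). Sequences were read from its transcripts. A few withheld items are not reported here.

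Genes were filtered by filterByExpr (minimum count of 10, minimum total of 15), which kept 14671 genes and removed 0.110% of counts, scaled by TMM and compared with edgeR 4.0.16 (R 4.3.3) by its robust, two-sided quasi-likelihood test without covariates. P-values were adjusted after Benjamini and Hochberg across the 14671 genes. CPM were computed on scaled library sizes, and log2 CPM for likeness with a prior count of 2. The thresholds on adjusted p and fold change are those of the study's methods. Called genes had an adjusted p under 0.05. Alternatives were DESeq2 1.42.0, limma 3.58.1 (voom), other scalings and filters, a replicate block and each library left out. Replicates differed beyond sampling noise (chi-square per gene of 2.64 to 3.67), and each was counted as 1 sample. Such a difference can also arise between technical replicates, so it does not show that they came from separate mice or cultures. Intervals come from the model. The limit of 3 counts covers counting error only. The fits were tested on simulated data. The receptors and lists were chosen with earlier results of these data known. From each list beside the receptors, up to 5 genes with the smallest adjusted p under 0.05 and up to 3 with the highest mean level were named, apart from those said to be named later.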

Additional observations from a re-analysis of the deposited data

How the results depend on the processing

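The 13 alternatives (6 that left out 1 library each and 7 others) moved no count of genes or receptors past the thresholds by more than 1.5 times. Between 3 and 4 receptors passed the adjusted p in each, and 1, Ccr7, passed both thresholds. Ccr7, Cxcr6 and Ccr2 passed in all 13, with log2 fold changes of 1.07 to 1.19, 0.15 to 0.18 and -0.18 to -0.14. Cxcr3 passed in 9 of 13 (-0.52 to -0.32) and Ccr8 in 1 of 13 (-0.37 to -0.15). Over the 42 genes named by rule, 13 values lost and 6 gained the threshold of 544 values compared with the fit reported, and the cause was not tested. The direction of 3 genes that never passed turned when 1 library was left out. Leaving out each library in turn gave -0.1247 to 0.0091 for Ccr4, -0.4936 to 0.0833 for Ackr2 and -0.0045 to 0.0502 for P2ry10. Grk2 went above an adjusted p of 0.05 in DESeq2, without the filter, with the replicate block, without scaling factors (added after the data were seen) and when control replicate 2, control replicate 3 or IL-33 replicate 1 was left out. Ccl1 went below it with the stricter filter, without scaling factors and when replicate 1 of either group was left out. In the labels, replicate numbers recur in both groups. Deviations of same-numbered libraries from their group means had correlations of 0.0116, 0.0032 and 0.0107 across genes. Those of libraries with different numbers were lower, at -0.0138 to 0.0029. All were very small, and same-numbered libraries were not taken as pairs. With the replicate block, 3798 genes passed the adjusted p in place of 4036, 666 both thresholds in place of 714, and the same number of receptors, 4, passed, with Ccr7 at 1.14. Levels per kilobase by the longest transcript gave the same order of the receptors by the mean of each group. By that length, however, the control libraries of Cxcr4 (29.31 to 32.81) and Ccr2 (30.45 to 31.67) overlapped. By the mean of all 6 libraries, Cxcr5 and Ccr9, the lowest in either case, changed places. Depth limits Cxcr5 and Ccr9, which had at most 10 counts in any library. Groups of 3 libraries were too small to look for single libraries that stand apart.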
